A study of Mus musculus with 3 samples.

Results

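The 8 genes described here make up the axis that the checkpoint receptors PD-1 and CTLA-4 work in: the receptors Pdcd1 (which encodes PD-1), Ctla4, Cd28 and Icos, and the ligands Cd274 (PD-L1), Pdcd1lg2 (PD-L2), Cd80 and Cd86. They were chosen by gene symbol, and all 8 were found among the 32285 genes of the count tables. The data are 3 droplet single-cell RNA libraries, with 1 library for each condition, made from digested mouse tumours grown from LLC1-sgLkb1, a Lewis lung carcinoma line whose genotype label, shared by all 3 libraries, is LKB1 knockdown. The library labelled CKO+RI carries the treatment label of radiation with an immune checkpoint inhibitor. The Flox+RI library has that same treatment label, and the Flox+ICI library has the inhibitor alone. By the series' design text, the hosts were Sfrp2 fl/fl mice or Sfrp2ΔCol1a2 mice, in which Sfrp2, a secreted Wnt modulator, is deleted through Col1a2, a gene of fibroblasts. The same text describes lung lesions from tail vein injection, a subcutaneous tumour for irradiation 3 weeks later, and the collection of lung tumours. The labels name the tissue only as tumour, and they name neither the target of the inhibitor, nor the age or number of the mice, nor whether animals were pooled. The comparisons set the library labelled CKO+RI over Flox+RI, a pair that differs in the host label, and Flox+RI over Flox+ICI, a pair that differs in radiation. Both use the Flox+RI library. With 1 library a group there was no test between conditions, and every interval below covers counting error only.

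CD28 on T cells binds CD80 and CD86 on antigen-presenting cells and gives the costimulatory signal that acts together with the T cell receptor, while CTLA-4 binds the same ligands more tightly and holds that signal back. PD-1 appears on T cells after activation, binds PD-L1 and PD-L2, and recruits phosphatases that damp T cell receptor and CD28 signalling. ICOS is a related costimulatory receptor that is induced on activated T cells. In tumours, exhausted CD8 T cells keep PD-1, regulatory T cells (Treg) hold CTLA-4 at high levels, and myeloid and tumour cells can be induced by interferon-gamma to make PD-L1.

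The 8 genes lie in 4 places of the GRCm38 genome. Cd28, Ctla4 and Icos are neighbours on the plus strand of chromosome 1 (chr1:60716800-60773359, chr1:60887000-60915832 and chr1:60977927-61000320), with 113640 bases between Cd28 and Ctla4 and 62094 between Ctla4 and Icos. Pdcd1 is on the minus strand of the same chromosome (chr1:94038305-94052553). Cd274 (chr19:29367455-29388095) and Pdcd1lg2 (chr19:29410919-29471161) lie 22823 bases apart on the plus strand. Cd86 (chr16:36603869-36666081, minus strand) and Cd80 (chr16:38455561-38496335, plus strand) are 1789479 bases apart.

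RefSeq promoter windows of build GRCm38.p6, from 250 bases before to 50 bases after the annotated start, were matched for 5 of the 8 genes: Pdcd1, Ctla4, Cd274, Pdcd1lg2 and Cd80. Those of Cd274 and Pdcd1lg2 are printed because these neighbouring ligand genes had different patterns over cell classes, and that of Ctla4 because its transcripts were counted outside T cells. Capitals mark GGAAA, the core that NFAT factors bind, on either strand. They also mark TATAAA, the letters of a TATA box, which in the Ctla4 window lie 40 bases after the annotated start.
Cd274, chr19:29367188-29367487, plus strand: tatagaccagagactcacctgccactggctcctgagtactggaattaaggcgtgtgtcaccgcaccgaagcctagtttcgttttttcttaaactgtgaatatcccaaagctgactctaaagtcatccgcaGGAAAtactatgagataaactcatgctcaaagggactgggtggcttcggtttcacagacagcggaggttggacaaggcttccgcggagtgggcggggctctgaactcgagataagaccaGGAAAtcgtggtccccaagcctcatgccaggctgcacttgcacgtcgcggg
Pdcd1lg2, chr19:29410669-29410968, plus strand: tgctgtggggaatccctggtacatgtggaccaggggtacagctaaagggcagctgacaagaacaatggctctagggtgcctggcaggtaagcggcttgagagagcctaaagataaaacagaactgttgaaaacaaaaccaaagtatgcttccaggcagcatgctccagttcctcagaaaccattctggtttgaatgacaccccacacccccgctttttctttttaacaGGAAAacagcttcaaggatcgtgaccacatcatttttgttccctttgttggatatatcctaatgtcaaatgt
Ctla4, chr1:60908775-60909074, plus strand: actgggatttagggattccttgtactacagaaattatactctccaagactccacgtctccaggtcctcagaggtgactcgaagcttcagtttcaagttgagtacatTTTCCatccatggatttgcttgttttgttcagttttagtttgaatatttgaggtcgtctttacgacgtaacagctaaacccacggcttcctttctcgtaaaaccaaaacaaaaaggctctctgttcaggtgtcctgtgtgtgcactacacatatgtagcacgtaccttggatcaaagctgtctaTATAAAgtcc
GGAAA is a short word that 61.3% of the 32851 RefSeq windows of this length hold, and TATAAA was in 13.6% of them. The interferon-gamma-activated site TTCNNNGAA (8.30% of windows), a doubled motif of the interferon regulatory factors (3.44%) and the NF-kB motif (0.411%), each searched on both strands, were in none of the 5 windows. The AP-1 word TGANTCA (7.81% of windows) was in the Cd80 window, 42 bases before the start. A match describes letters in these windows and was not tied to any level below.

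The library labelled CKO+RI held 9300 barcodes, against 13340 in Flox+RI and 10842 in Flox+ICI. After removal of barcodes with few genes, a high mitochondrial share or a doublet call, the numbers of cells kept were 8383, 11706 and 9777 across the library labelled CKO+RI, Flox+RI and Flox+ICI. Median depth was 13406 UMIs (unique molecular identifiers, each standing for 1 captured RNA molecule) per kept cell for the library labelled CKO+RI, 2576.5 for Flox+RI and 3018 for Flox+ICI. From 31 to 37 barcode sequences were shared by any pair of libraries. Sfrp2, the gene of the host allele, goes against the name CKO: it had 46 UMIs for the library labelled CKO+RI, 3 for Flox+RI and 6 for Flox+ICI, of which 1, 1 and 2 were in fibroblast-gated cells (106, 36 and 200 cells). Which part of Sfrp2 the deletion removes was also not given in the sources used here, so the label could not be checked with these counts.

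Cells were assigned to classes by markers. A cell entered a class when it had UMIs of at least 2 of that class's 6 marker genes and more than of any other of the 18 classes, and T cells were then divided by Foxp3, Cd8a or Cd8b1, Cd4 and Trdc into 4 subsets. CD8 T-gated cells numbered 222 for the library labelled CKO+RI, 123 for Flox+RI and 233 for Flox+ICI, macrophage-gated cells 578, 1404 and 781, neutrophil-gated cells 643, 2099 and 1745, and tumour-gated cells (the class named LLC, gated on Krt8, Krt18, Hmga2, Igf2bp3, Ereg and Sema3a) 4675, 4261 and 3086. The gate is a range, not a boundary between types: 2, 29 and 28 of the CD8 T-gated cells had exactly 2 T cell markers, as did 36, 110 and 28 of the macrophages and 50, 636 and 178 of the neutrophils for their own markers. The median CD8 T-gated cell had 5, 3 and 4 of the 6 T cell markers across the library labelled CKO+RI, Flox+RI and Flox+ICI, and at most 2, 1 and 1 of another class. None of the 8 genes was a gate marker. Alveolar type 2-gated cells (234, 264 and 490), which line lung air sacs, were present in each library, although the label is tumour.

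Pdcd1, Cd28 and Icos UMIs were found mostly in T-gated cells, and the ligands were spread over myeloid and other classes. In the library labelled CKO+RI, T-gated cells were 5.64% of those kept and held 257 of its 300 Pdcd1 UMIs, 84.6% of its Cd28 UMIs and 86.5% of its Icos UMIs. In Flox+RI they held 70 of 88 Pdcd1 UMIs, 60.2% of Cd28 and 70.7% of Icos, and in Flox+ICI 153 of 179 Pdcd1 UMIs, 70.9% of Cd28 and 68.8% of Icos. Macrophage-gated cells held the largest gated share of Cd86, with 66.7%, 61.5% and 45.5% of its UMIs across the library labelled CKO+RI, Flox+RI and Flox+ICI. For Cd274 the macrophage share was 36.3%, 27.2% and 23.4%, and tumour-gated cells added 621, 238 and 345 UMIs. Ctla4 was the exception among the receptors, since tumour-gated cells held 74.3%, 76.1% and 67.0% of its UMIs.

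**Figure D1:**
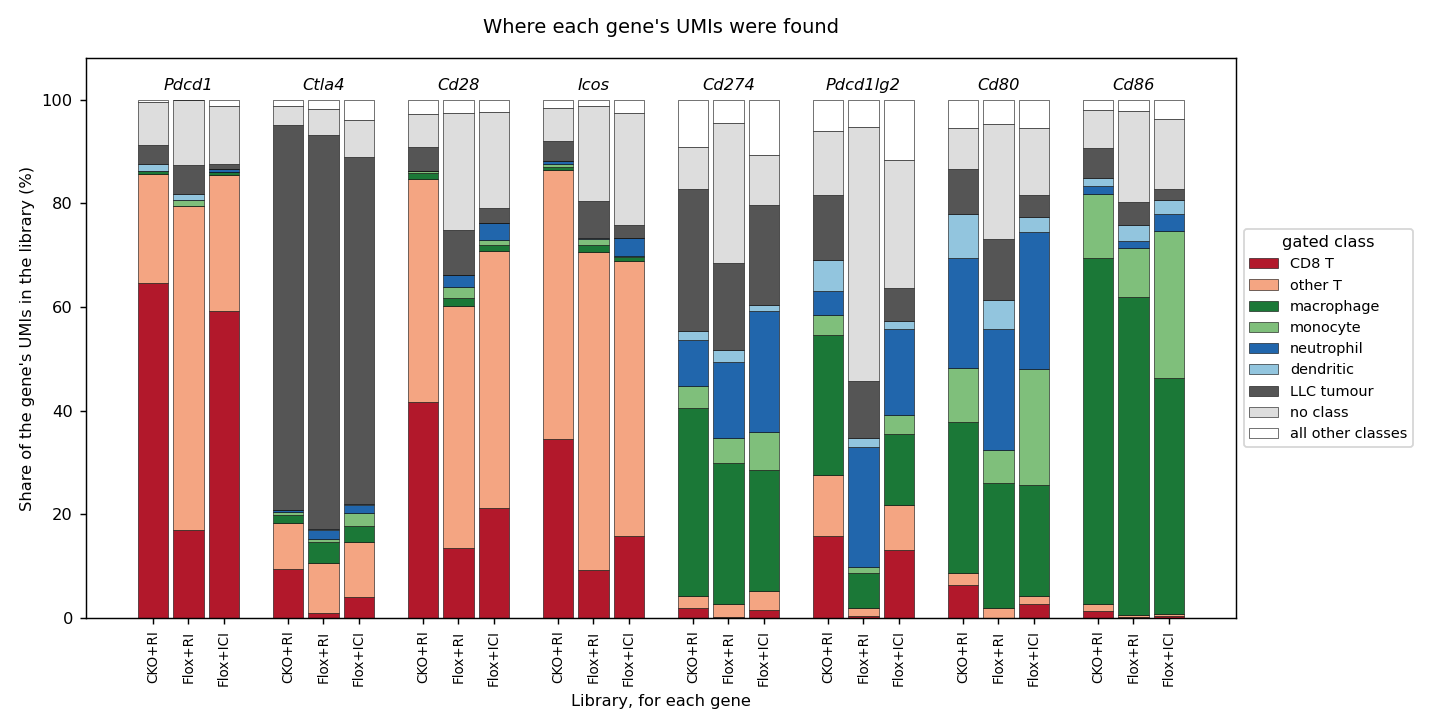
Share of each gene's UMIs (percent) held by each marker-gated class, as stacked bars, 1 for each library (the library labelled CKO+RI, Flox+RI and Flox+ICI) under each gene. T-gated cells hold most Pdcd1, Cd28 and Icos UMIs and macrophages the largest share of Cd86 UMIs, while tumour-gated cells hold 74.3%, 76.1% and 67.0% of Ctla4 UMIs.

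In CD8 T-gated cells Pdcd1 was highest in the library labelled CKO+RI and lowest in Flox+RI. It had 205 UMIs per 1000000 UMIs of the class (CPM; exact Poisson 95% interval 177 to 236) in the library labelled CKO+RI, 70.4 CPM (39.4 to 116) in Flox+RI and 162 CPM (133 to 196) in Flox+ICI. Both other intervals lay above that of Flox+RI, which rested on 15 UMIs. The level was 2.92 times that of Flox+RI in the library labelled CKO+RI (exact 95% interval of the ratio 1.72 to 5.31), and in Flox+RI it was 0.434 times that of Flox+ICI (0.234 to 0.748). A Pdcd1 UMI was seen in 33.3% of CD8 T-gated cells for the library labelled CKO+RI, in 8.94% for Flox+RI and in 25.8% for Flox+ICI, at median depths of 3397.5, 1577 and 2130 UMIs. Among macrophages, deeper cells with little PD-1, the shares were 0.346%, 0% (0 of 1404 cells, which allows up to 0.214%) and 0.128% at median depths of 8000, 4604.5 and 5624. With every CD8 T-gated cell thinned to 1000 UMIs the shares were 14.5% (exact binomial interval 10.1 to 19.8), 7.48% (3.28 to 14.2) and 10.9% (7.12 to 15.8), in the same order but with overlapping intervals. This thinning left out 1, 16 and 13 shallower cells across the library labelled CKO+RI, Flox+RI and Flox+ICI.

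Other T cell subsets did not share that order. In CD4 T-gated cells Pdcd1 was 92.8 CPM (55.0 to 147) in the library labelled CKO+RI, 99.1 (42.8 to 195) in Flox+RI and 127 (79.9 to 193) in Flox+ICI, with overlapping intervals. In Treg-gated cells, of which there were 14, 32 and 18, it rested on 1, 11 and 5 UMIs. Gamma-delta T-gated cells were few (7, 22 and 13) but carried Pdcd1 as well. Pooled over the libraries they had 234 CPM (148 to 350; 23 UMIs in 42 cells). CD8 T-gated cells pooled in the same way had 174 CPM (155 to 194). In T-gated cells that no subset marker placed, which may include CD8 T cells whose marker was not captured, Pdcd1 was 83.0 CPM (59.0 to 114), 48.9 CPM (29.9 to 75.5) and 30.2 CPM (17.9 to 47.8). There the library labelled CKO+RI stood at 1.70 times Flox+RI (0.967 to 3.07), and Flox+RI at 1.62 times Flox+ICI (0.812 to 3.24), so the Flox+RI value was not the lowest. Over the T cell cluster of an unsupervised clustering (585, 703 and 1031 cells), Pdcd1 was 143 CPM, 69.2 CPM and 89.0 CPM, a ratio of 2.06 (1.60 to 2.67) for the library labelled CKO+RI over Flox+RI and 0.778 (0.590 to 1.02) for Flox+RI over Flox+ICI. The difference between Flox+RI and Flox+ICI in CD8 T-gated cells was therefore not seen beyond counting error over all T cells. CD8 T-gated cells made up 46.9% of T-gated cells for the library labelled CKO+RI, 27.8% for Flox+RI and 33.5% for Flox+ICI. They held 64.7%, 17.0% and 59.2% of the Pdcd1 UMIs. Summed over all kept cells Pdcd1 was 2.09 CPM, 1.02 CPM and 2.72 CPM, a sum in which fewer cells of a type and less RNA per cell cannot be told apart.

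CD8 T-gated cells with a Pdcd1 UMI (74 for the library labelled CKO+RI, 11 for Flox+RI and 60 for Flox+ICI) differed from those without one in some genes of exhaustion and killing. In the library labelled CKO+RI, Tox, a transcription factor of T cell exhaustion, was 679 CPM in cells with and 256 CPM in cells without a Pdcd1 UMI (2.65-fold, 2.15 to 3.28). Lag3, a further inhibitory receptor, was 289.9 CPM in cells with and 58.3 CPM in cells without (4.97-fold, 3.32 to 7.63), and Prf1, which encodes perforin, was 573 CPM and 167 CPM (3.42-fold, 2.67 to 4.41). Tcf7, a factor of memory-like T cells, ran the other way, with 4.83 CPM in cells with and 50.8 CPM in cells without (0.0951-fold). The same 4 genes kept these directions in Flox+ICI, where Tox was 2.24-fold (1.70 to 2.96), Lag3 3.54-fold (2.12 to 6.06), Prf1 3.30-fold (2.09 to 5.33) and Tcf7 0.0798-fold (0.00934 to 0.308). Gzmb, which encodes the cytotoxic protease granzyme B, differed in the library labelled CKO+RI (1104 CPM in cells with and 408 CPM in cells without, 2.70-fold, 2.30 to 3.19) and not beyond counting error in Flox+ICI (433 CPM and 389 CPM, 1.11-fold, 0.865 to 1.43). In Flox+RI only 11 cells had a Pdcd1 UMI, and not all of these genes kept their direction. Tox was 1.95-fold there with an interval that held 1 (0.838 to 4.06), Lag3 was 11.7-fold (2.51 to 58.8) on 5 and 4 UMIs, Tcf7 was 1.04-fold (0.201 to 3.37), and Gzmb had 0 UMIs in cells with a Pdcd1 UMI against 192 CPM in cells without (upper limit of the ratio 0.979). Further genes were compared, and not all held in both deeper sets. Across the library labelled CKO+RI and Flox+ICI, Havcr2 was 2.73-fold (1.91 to 3.95) and 1.24-fold (0.571 to 2.64). Tigit was 1.22-fold (0.616 to 2.41) and 1.60-fold (0.214 to 11.9), and Nr4a2 1.64-fold (1.28 to 2.09) and 0.751-fold (0.559 to 0.9997). Il7r was lower in both (0.479-fold, 0.299 to 0.749, and 0.532-fold, 0.299 to 0.907). Ctla4 was detected together with Pdcd1: 66.2% of CD8 T-gated cells with a Pdcd1 UMI and 35.1% of those without had a Ctla4 UMI in the library labelled CKO+RI, against 45.5% and 13.4% in Flox+RI and 48.3% and 16.8% in Flox+ICI. Cells with a Pdcd1 UMI were also deeper, with median depths of 4398 against 3117 UMIs for the library labelled CKO+RI, with 1698 against 1576 UMIs for Flox+RI and with 3327 against 1727 UMIs for Flox+ICI, and the part of depth in these shares was not tested.

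Ctla4 had its highest level in Treg-gated cells, where the libraries did not differ beyond counting error. It was 776 CPM (605 to 980) in the library labelled CKO+RI, 707 CPM (554 to 889) in Flox+RI and 759 CPM (542 to 1033) in Flox+ICI, with a UMI in 71.4%, 84.4% and 88.9% of cells. The ratio was 1.10 (0.779 to 1.54) for the library labelled CKO+RI over Flox+RI and 0.932 (0.626 to 1.41) for Flox+RI over Flox+ICI. The number of Treg-gated cells did differ: they were 2.96% of T-gated cells (1.63 to 4.92) in the library labelled CKO+RI, 7.22% (4.99 to 10.04) in Flox+RI and 2.59% (1.54 to 4.06) in Flox+ICI. In CD8 T-gated cells Ctla4 was 309 CPM (274 to 346) in the library labelled CKO+RI, 127 CPM (83.5 to 184) in Flox+RI and 127 CPM (101 to 158) in Flox+ICI. The library labelled CKO+RI thus stood 2.44-fold above Flox+RI (1.64 to 3.76), and Flox+RI was level with Flox+ICI (0.997, 0.620 to 1.56). After thinning, a Ctla4 UMI was seen in 19.9% (14.9 to 25.8), 14.02% (8.06 to 22.1) and 11.4% (7.49 to 16.3) of these cells. The library labelled CKO+RI was below Flox+RI in T cells with no subset marker, where Ctla4 was 251 CPM in the library labelled CKO+RI, 329.9 CPM in Flox+RI and 227 CPM in Flox+ICI, with a ratio of 0.761 (0.590 to 0.982) for the library labelled CKO+RI over Flox+RI. In CD4 T-gated cells it was 438 CPM (350.2 to 542), 619 CPM (459.7 to 817) and 232 CPM (166 to 316), and the interval of Flox+RI overlapped that of the library labelled CKO+RI. Over the whole T cell cluster the library labelled CKO+RI did not differ from Flox+RI beyond counting error (0.958, 0.840 to 1.09), and Flox+RI was 1.65 times Flox+ICI (1.43 to 1.91).

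Ctla4 UMIs were also counted in cells that are not T cells, most of them tumour-gated. Tumour-gated cells had 18.3 CPM (17.6 to 19.1; 2297 UMIs) in the library labelled CKO+RI, 30.7 CPM (29.4 to 32.0; 2152 UMIs) in Flox+RI and 29.996 CPM (28.4 to 31.6; 1405 UMIs) in Flox+ICI, and 35.8%, 36.5% and 34.3% of these cells had a Ctla4 UMI. The ratio was 0.598 (0.564 to 0.635) for the library labelled CKO+RI over Flox+RI and 1.02 (0.955 to 1.09) for Flox+RI over Flox+ICI. Tumour-gated cells fell into different clusters in each library: clusters 0 and 1 held 61.1% and 25.4% of them in the library labelled CKO+RI, cluster 16 held 83.2% in Flox+RI and cluster 4 held 61.6% in Flox+ICI. Within clusters 0, 1 and 16 the library labelled CKO+RI stood at 0.570 (0.444 to 0.744), 0.544 (0.393 to 0.772) and 0.554 (0.428 to 0.707) times Flox+RI. In cluster 3, to which both libraries gave similar numbers of cells (257 and 242), the ratio was 0.744 and its interval held 1 (0.429 to 1.32). For Flox+RI over Flox+ICI, clusters 0 and 16 gave 1.14 (0.775 to 1.69) and 0.970 (0.715 to 1.35), while cluster 3 (242 and 899 cells) gave 0.541 (0.335 to 0.832). The library labelled CKO+RI was thus below Flox+RI in clusters 0, 1 and 16, and the wide interval of cluster 3 held both 1 and 0.598. The near-equal level of Flox+RI and Flox+ICI over all tumour-gated cells was not found in cluster 3.

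The other 3 receptors and the T cell markers were near 0 in tumour-gated cells. Relative to the level in T-gated cells of the same library, tumour-gated cells held 5.55%, 8.78% and 14.6% for Ctla4 across the library labelled CKO+RI, Flox+RI and Flox+ICI, but 0.0588%, 0.0877% and 0.0417% for Pdcd1. The summed T cell markers stood at 0.110%, 0.165% and 0.161% of their T-gated level. Among the tumour-gated cells with no UMI of any of the 6 T cell markers (4136, 3968 and 2849 cells), Ctla4 was 18.4 CPM, 30.9 CPM and 30.2 CPM, within the counting error of all tumour-gated cells. The level was also present in other classes: macrophages had 8.81 CPM in the library labelled CKO+RI, 17.5 CPM in Flox+RI and 14.8 CPM in Flox+ICI, which is 48.1%, 57.0% and 49.4% of the tumour-gated level, while their summed tumour markers stood at 14.1%, 6.53% and 5.12%. Neutrophils stood at 44.3%, 87.8% and 47.8% of the tumour-gated Ctla4 level and at 15.4%, 12.97% and 7.85% of the tumour marker level. Classical monocytes stood at 78.6%, 70.3% and 72.0% for Ctla4 and at 8.82%, 6.60% and 4.71% for the tumour markers. In these 3 classes Ctla4 kept neither the proportion of the T cell markers nor that of the tumour markers. Both marker sets were used in the gate, which takes a cell only if it has fewer of them than of its own markers. Their low levels outside their own class were therefore partly set by the gate, and the source of the Ctla4 UMIs was not tested. Alveolar macrophages, with 1, 0 and 10 Ctla4 UMIs, stood at 10.5%, 0% and 48.5% for Ctla4 and at 11.2%, 8.69% and 4.94% for the tumour markers.

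The annotation holds a further transcript at this gene. Of the 3 Ctla4 transcripts of the GRCm38 annotation used here, the processed transcript Ctla4-203 starts at chr1:60887000, 22025 bases upstream of the start of the protein-coding Ctla4-201 (chr1:60909025), and a processed pseudogene of the ribosomal protein gene Rpl18, Rpl18-ps1 (chr1:60900898-60901422, same strand), lies inside its span and is not among the 32285 genes counted. Set against Rpl18, Ctla4 had 5.88, 9.60 and 10.9 UMIs per 1000 Rpl18 UMIs in tumour-gated cells, 4.19, 7.26 and 8.34 in macrophages and 6.98, 12.2 and 12.5 in neutrophils across the library labelled CKO+RI, Flox+RI and Flox+ICI, and 78.1, 68.5 and 48.9 in T-gated cells. On this scale these 3 classes outside T cells lay between 4.19 and 12.5, and T-gated cells between 48.9 and 78.1. Other classes outside T cells went past that range. Endothelial cells stood at 7.20, 8.41 and 13.3, and alveolar macrophages at 1.07, 0 and 11.4 on 1, 0 and 10 Ctla4 UMIs. Whether reads from that pseudogene were counted as Ctla4 was not tested.

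**Figure D2:**
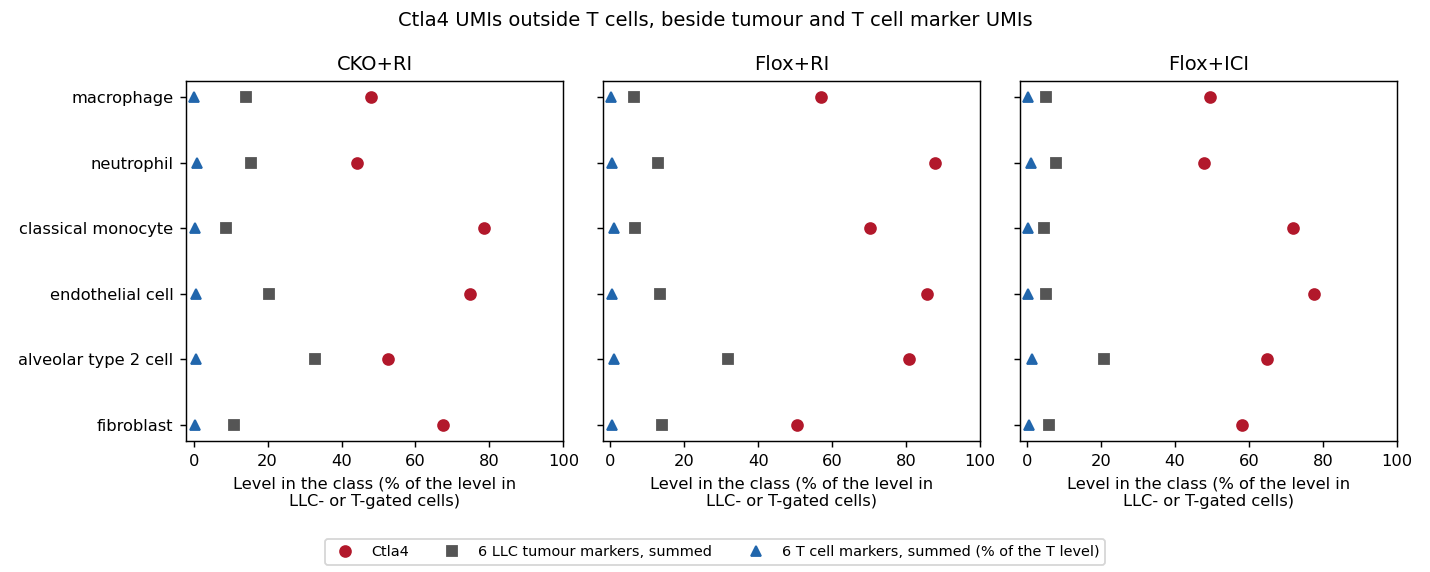
Level of Ctla4 (circles) and of the 6 summed tumour markers (squares) in 6 classes as a percent of the level in tumour-gated cells, and of the 6 summed T cell markers (triangles) as a percent of the level in T-gated cells, in panels for the library labelled CKO+RI, Flox+RI and Flox+ICI. Ctla4 in macrophages stands at 48.1%, 57.0% and 49.4%, to the right of the tumour markers at 14.1%, 6.53% and 5.12%. Both marker sets were used in the gate, which partly sets their levels here.

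Cd28 and Icos, the costimulatory receptors, had smaller differences between libraries than Pdcd1 in CD8 T-gated cells. Cd28 was 215 CPM (186 to 246) in the library labelled CKO+RI, 169 CPM (118 to 234) in Flox+RI and 126 CPM (99.9 to 156) in Flox+ICI, with ratios of 1.27 (0.888 to 1.87) and 1.35 (0.883 to 2.01) that both held 1. Icos was 158 CPM (133 to 185), 145 CPM (98.8 to 207) and 87.3 CPM (66.1 to 113), and only the ratio of Flox+RI over Flox+ICI left out 1 (1.67, 1.04 to 2.62). A Cd28 UMI was seen in 50%, 24.4% and 27.5% of CD8 T-gated cells, and in 20.8%, 21.5% and 14.5% of them after thinning. Among macrophages the unthinned share was 1.04%, 0.285% and 0.512%, so the CD8 T cell share was far above that of a class that should lack the gene. In CD4 T-gated cells Cd28 was 340.4 CPM (263 to 433) in the library labelled CKO+RI, 198 CPM (113 to 322) in Flox+RI and 191 CPM (132 to 268) in Flox+ICI, and in Treg-gated cells 155 CPM, 213 CPM and 171 CPM with overlapping intervals.

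Icos was higher in CD4 T-gated cells than in CD8 T-gated cells in each library, with separate intervals, and in Treg-gated cells so in all but Flox+ICI, where the intervals met. In CD4 T-gated cells it was 397 CPM (313 to 496) in the library labelled CKO+RI, 557 CPM (407 to 746) in Flox+RI and 388 CPM (301 to 493) in Flox+ICI, and in Treg-gated cells 333 CPM (224 to 475), 465 CPM (343 to 617) and 209 CPM (104 to 373). The Treg interval of Flox+RI met that of Flox+ICI only at its lower end. Over the T cell cluster Icos stood at 0.793 (0.682 to 0.924) for the library labelled CKO+RI over Flox+RI and at 1.48 (1.26 to 1.73) for Flox+RI over Flox+ICI. Cd28 stood at 1.19 (1.02 to 1.41) and 1.03 (0.865 to 1.21). Of the pair, Icos was therefore the one that was highest in Flox+RI over this cluster. That was not so in CD8 T-gated cells, where the library labelled CKO+RI stood at 1.08 times Flox+RI (0.732 to 1.65). In T cells with no subset marker Icos was 241 CPM and 220 CPM in these libraries (1.09, 0.822 to 1.46). The mix of T cell subsets differed between libraries, and its part was not tested. Icosl, the ligand gene of Icos, belongs to the same family as Cd80 and Cd86. It was 14.4 CPM, 2.88 CPM and 8.998 CPM in classical monocytes and 5.94 CPM, 3.10 CPM and 6.97 CPM in macrophages.

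**Figure D3:**
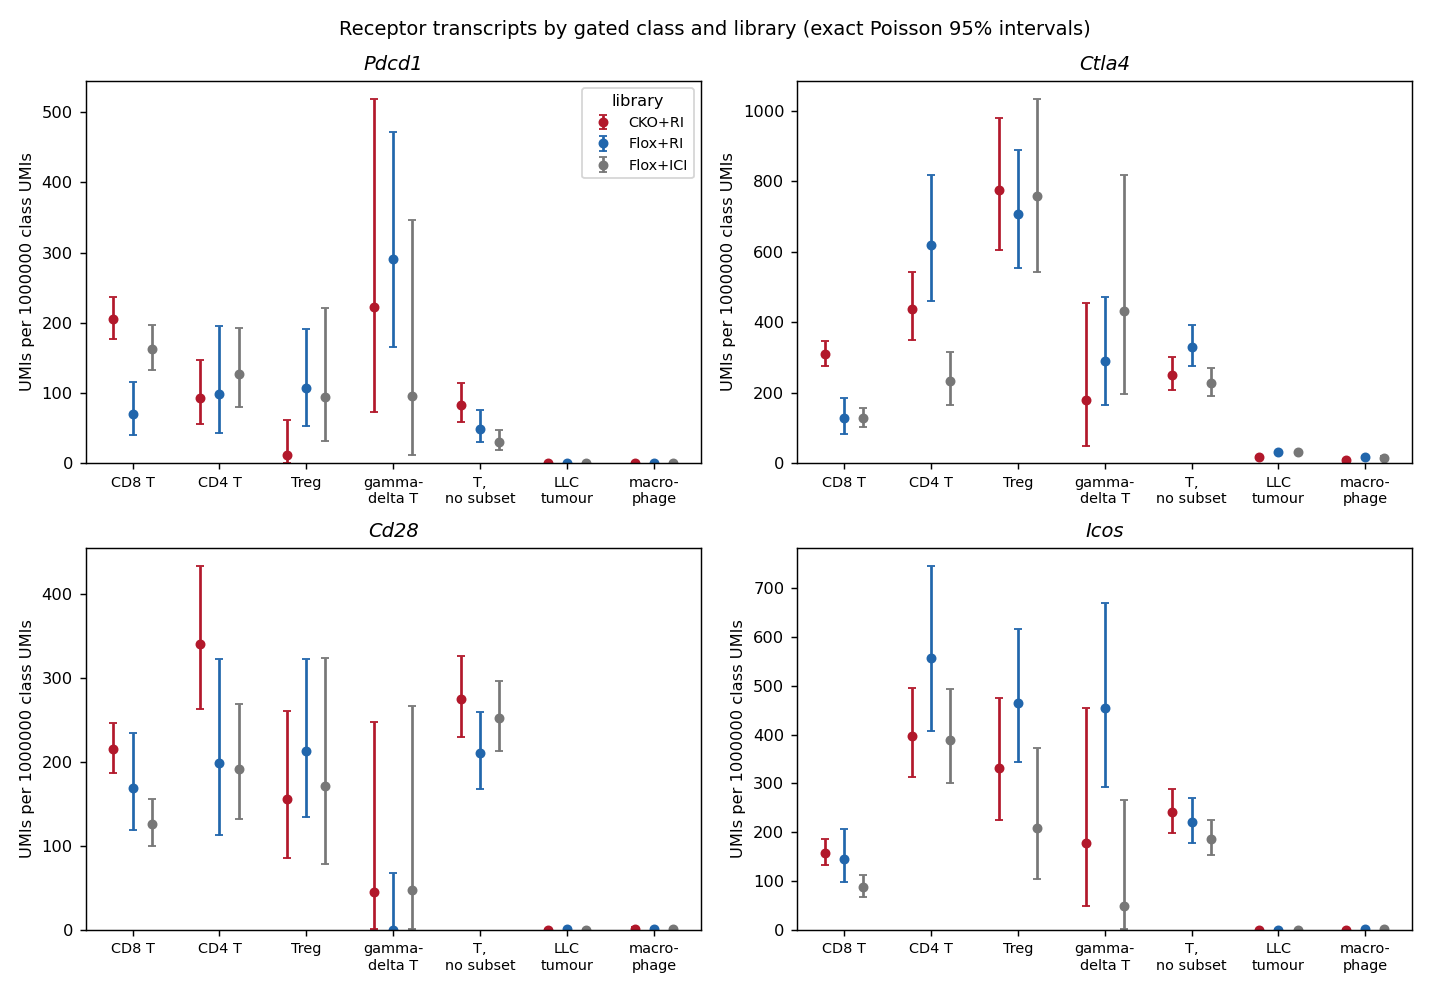
Level of Pdcd1, Ctla4, Cd28 and Icos (UMIs per 1000000 UMIs of the class, with exact Poisson 95% intervals) in 5 groups of T cells, tumour-gated cells and macrophages of the library labelled CKO+RI, Flox+RI and Flox+ICI. Pdcd1 in CD8 T cells stands at 205, 70.4 and 162 CPM, and Ctla4 in Treg-gated cells at 776, 707 and 759 CPM.

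Cd274 was higher in macrophages of the library labelled CKO+RI than in those of Flox+RI. Macrophage-gated cells had 168 CPM (157 to 180.2; 821 UMIs) in the library labelled CKO+RI, 60.2 CPM (54.4 to 66.5; 389 UMIs) in Flox+RI and 94.1 CPM (85.3 to 104; 419 UMIs) in Flox+ICI, and the 3 intervals were separate. The ratio was 2.79 (2.47 to 3.16) for the library labelled CKO+RI over Flox+RI and 0.640 (0.556 to 0.736) for Flox+RI over Flox+ICI. A Cd274 UMI was seen in 49.3%, 20.9% and 29.1% of macrophages, and after thinning in 12.9% (10.2 to 16.03), 5.78% (4.59 to 7.17) and 7.14% (5.41 to 9.22). In tumour-gated cells the thinned shares were 0.648%, 0.467% and 0.946%.

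The macrophages of the 3 libraries fell into different clusters. Cluster 10, led by C1qa, Mrc1 and Pf4, held 77.0% of the macrophage-gated cells for the library labelled CKO+RI, 37.4% for Flox+RI and 41.9% for Flox+ICI. Cluster 17, led by Gpnmb, Ctss and Arg1, held 8.997%, 58.5% and 54.4%. In cluster 10 Cd274 was 166 CPM (154 to 179), 44.4 CPM (36.9 to 52.9) and 133 CPM (118 to 150), and in cluster 17 it was 196 CPM (164 to 233), 79.0 CPM (71.7 to 86.8) and 75.0 CPM (65.8 to 85.04). The library labelled CKO+RI was higher than Flox+RI in both, by 3.74-fold (3.09 to 4.57) and 2.49-fold (2.03 to 3.03). Flox+RI was lower than Flox+ICI in cluster 10 (0.333, 0.267 to 0.413) and did not differ from it beyond counting error in cluster 17 (1.05, 0.897 to 1.24). Macrophages with a UMI of Cxcl9, a chemokine induced by interferon-gamma, had more Cd274 than those without, both for the library labelled CKO+RI (242 CPM and 135 CPM, 1.79-fold, 1.55 to 2.05) and for Flox+ICI (144 CPM and 65.8 CPM, 2.20-fold, 1.80 to 2.68). In Flox+RI, where 55 of 1404 macrophages had a Cxcl9 UMI, the values were 70.2 CPM and 59.7 CPM (1.18-fold, 0.719 to 1.82). Cells with a Cxcl9 UMI were deeper in each library, and the part of depth was not tested.

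Neutrophils and migratory dendritic cells also carried Cd274. In neutrophil-gated cells it was 165 CPM (143 to 189) in the library labelled CKO+RI, 119.8 CPM (104 to 137) in Flox+RI and 194 CPM (176 to 214) in Flox+ICI, so that the library labelled CKO+RI stood 1.38-fold above Flox+RI (1.13 to 1.68) and Flox+RI at 0.617 of Flox+ICI (0.520 to 0.730). In the library labelled CKO+RI, 91 cells of neutrophil cluster 8 (led by Il1b, Il1r2 and Cstdc4) had 633 CPM, against 95.7 CPM in that cluster of Flox+RI (6.61-fold, 4.76 to 9.24), while in cluster 7 (led by S100a9, Retnlg and S100a8) the libraries had 105 CPM and 100.3 CPM (1.05-fold, 0.733 to 1.52). The neutrophil difference between these libraries was thus held by the smaller cluster. Migratory dendritic cells, which carry antigen to lymph nodes, had 347 CPM (243 to 481), 473 CPM (321 to 672) and 982 CPM (449 to 1863) on 16, 24 and 4 cells. Classical monocytes ran against the macrophages, with 50.04 CPM in the library labelled CKO+RI, 79.1 CPM in Flox+RI and 43.6 CPM in Flox+ICI (ratios 0.633, 0.431 to 0.931, and 1.81, 1.28 to 2.55). In Flox+RI, however, 41.5% of the monocyte-gated cells lay in macrophage cluster 17 and 20.1% in monocyte cluster 9, against 89.5% in cluster 9 for the library labelled CKO+RI and 90.9% for Flox+ICI. T-gated cells carried Cd274 as well: across the library labelled CKO+RI, Flox+RI and Flox+ICI, CD4 T-gated cells had 123.8 CPM (79.3 to 184), 49.6 CPM (13.5 to 127) and 92.7 CPM (53.0 to 151), and Treg-gated cells had 44.3 CPM (12.1 to 114), 77.5 CPM (33.5 to 153) and 228 CPM (118 to 398) on 4, 8 and 12 UMIs. Alveolar macrophages, the resident macrophages of the air sacs, had 236 CPM (196 to 281), 83.1 CPM (30.5 to 181; 24 cells) and 90.3 CPM (69.2 to 116). Within monocyte cluster 9 Cd274 did not differ beyond counting error (1.05, 0.595 to 1.998, and 1.26, 0.671 to 2.18).

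In tumour-gated cells Cd274 was low and differed between libraries. It was 4.96 CPM (4.58 to 5.36) in the library labelled CKO+RI, 3.39 CPM (2.97 to 3.85) in Flox+RI and 7.37 CPM (6.61 to 8.19) in Flox+ICI, with a UMI in 10.1%, 4.999% and 9.30% of the cells at median depths of 24933, 15830 and 14676 UMIs. The ratio was 1.46 (1.26 to 1.70) for the library labelled CKO+RI over Flox+RI and 0.460 (0.389 to 0.545) for Flox+RI over Flox+ICI. Cd274 and Cd86 stood in another proportion here than in macrophages: 621 and 124 UMIs in tumour-gated cells of the library labelled CKO+RI, against 821 and 1431 UMIs in its macrophages. Tumour-gated cells with a UMI of Gbp2, an interferon-induced GTPase, had more Cd274 than those without in each library: 8.31 CPM and 3.90 CPM in the library labelled CKO+RI (2.13-fold, 1.81 to 2.51), 9.23 CPM and 3.17 CPM in Flox+RI (2.91-fold, 1.83 to 4.45), and 11.4 CPM and 4.66 CPM in Flox+ICI (2.44-fold, 1.95 to 3.05). Cells with a Gbp2 UMI numbered 935 of 4675, 124 of 4261 and 1112 of 3086. The same division by Irf1, a further interferon-induced gene, gave a Cd274 ratio of 1.23 (1.01 to 1.49) in the library labelled CKO+RI. It gave 0.789 (0.607 to 1.03) in Flox+RI and 1.17 (0.901 to 1.52) in Flox+ICI, and both of these intervals held 1. Within the tumour clusters compared, the Cd274 ratio of the library labelled CKO+RI over Flox+RI had intervals that held 1 (1.46, 0.665 to 4.01, in cluster 0, 1.91, 0.643 to 9.36, in cluster 1, 0.991, 0.454 to 2.33, in cluster 3 and 0.537, 0.195 to 1.19, in cluster 16). Flox+RI over Flox+ICI was 1.34 (0.615 to 2.62) in cluster 3 and 0.628 (0.283 to 1.73) in cluster 16, so neither difference over all tumour-gated cells was seen beyond counting error within a cluster. Endothelial cells, which line vessels, had 23.5 CPM (15.1 to 35.0), 25.04 CPM (15.3 to 38.7) and 74.5 CPM (59.1 to 92.8), so Flox+RI stood at 0.336 (0.195 to 0.554) of Flox+ICI.

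Pdcd1lg2 had a pattern of its own: most of its UMIs came from Flox+RI, and most of those from 1 cluster. Neutrophil-gated cells had 5.69 CPM (2.29 to 11.7; 7 UMIs) in the library labelled CKO+RI, 94.0 CPM (80.2 to 109.5; 164 UMIs) in Flox+RI and 10.6 CPM (6.74 to 15.96; 23 UMIs) in Flox+ICI. The ratio was 0.0605 (0.0240 to 0.128) for the library labelled CKO+RI over Flox+RI and 8.84 (5.69 to 14.3) for Flox+RI over Flox+ICI. A UMI was seen in 1.09%, 6.29% and 1.26% of these cells, against 0% of fibroblast-gated cells in every library (0 of 106, 36 and 200 cells, which allows up to 2.83%, 8.33% and 1.50%). After thinning, which only 342 of 2099 neutrophil-gated cells of Flox+RI were deep enough for, the shares were 0.372%, 9.94% and 0.704%.

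The Flox+RI cells with Pdcd1lg2 lay mostly in cluster 20, which stayed unnamed. This cluster, led by Ccl3, Ccrl2, Tnf, Clec4d and Il1rn, held 6 cells from the library labelled CKO+RI, 2679 from Flox+RI and 47 from Flox+ICI, with a median of 829 UMIs in Flox+RI. There Pdcd1lg2 was 223 CPM (204 to 243) with a UMI in 16.7% of cells, and the cluster held 73.1% of all Pdcd1lg2 UMIs of Flox+RI. It also held 27.9% of that library's Cd274 UMIs (171 CPM, 154 to 188) and 32.5% of its neutrophil-gated cells. Cd86 was 4.29 CPM (2.06 to 7.89) in it. In the neutrophil clusters Pdcd1lg2 was below that cluster 20 level in every library. In cluster 8 it was 19.996 CPM (4.12 to 58.4) in the library labelled CKO+RI, 27.4 CPM (16.2 to 43.2) in Flox+RI and 51.9 CPM (19.0 to 113) in Flox+ICI. Flox+RI was thus not above Flox+ICI within cluster 8 (0.527, 0.200 to 1.62). In cluster 7 Pdcd1lg2 rested on 2, 2 and 9 UMIs. Over clusters to which each library of a pair gave at least 10% of the cells, the ratio was 0.493 (0.0357 to 6.80) and 1.87 (0.939 to 3.74), and both intervals held 1. The Flox+RI value is therefore that of 1 cluster found almost wholly in 1 library, and whether it is a cell state of the condition or a property of that library cannot be told apart. Within neutrophil-gated cells, those with a UMI of Ccl3, an inflammatory chemokine, had more Pdcd1lg2 in each library (21.7 CPM and 2.87 CPM in the library labelled CKO+RI, 164 CPM and 38.9 CPM in Flox+RI, and 51.9 CPM and 6.60 CPM in Flox+ICI).

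Pdcd1lg2 was low in macrophages and was also found in migratory dendritic cells. Macrophages had 8.40 CPM (6.03 to 11.4) in the library labelled CKO+RI, 7.43 CPM (5.48 to 9.85) in Flox+RI and 4.27 CPM (2.57 to 6.67) in Flox+ICI. Migratory dendritic cells, a known source of PD-L2, had 86.9 CPM (39.7 to 165), 153 CPM (73.2 to 281) and 109 CPM (2.76 to 608), on 9, 10 and 1 UMIs. In tumour-gated cells it was 0.152 CPM, 1.11 CPM and 0.192 CPM, and in alveolar type 2-gated cells 1.07 CPM, 40.4 CPM and 3.24 CPM. In both classes Flox+RI was the highest, as it was in the cells of cluster 20, which held 48.9% of the alveolar type 2-gated cells of Flox+RI. Of these 264 cells, 165 had exactly 2 of the 6 alveolar type 2 markers.

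Cd80 was highest in migratory dendritic cells and was lower in Flox+RI than in Flox+ICI in macrophages and monocytes. Migratory dendritic cells had 386 CPM (276 to 526) in the library labelled CKO+RI, 336 CPM (210.4 to 508) in Flox+RI and 763 CPM (307 to 1573) in Flox+ICI. Macrophages had 27.7 CPM (23.2 to 32.8), 19.0 CPM (15.8 to 22.7) and 50.3 CPM (44.0 to 57.4), so Flox+RI stood at 0.378 (0.301 to 0.474) of Flox+ICI and the library labelled CKO+RI at 1.45 times Flox+RI (1.13 to 1.87). Flox+RI was below Flox+ICI within both macrophage clusters, at 0.474 (0.362 to 0.619) in cluster 10 and 0.443 (0.338 to 0.579) in cluster 17. The higher level against Flox+RI was not seen within cluster 10 (0.915, 0.695 to 1.21) or cluster 17 (1.21, 0.654 to 2.10). Classical monocytes had 30.5 CPM (21.4 to 42.3), 41.7 CPM (27.9 to 59.9) and 87.7 CPM (75.9 to 101), and neutrophils 79.6 CPM (64.7 to 97.0), 68.2 CPM (56.5 to 81.6) and 129 CPM (114 to 145). In CD8 T-gated cells Cd80 had 29 UMIs (30.7 CPM) for the library labelled CKO+RI, 0 for Flox+RI and 27 (41.4 CPM) for Flox+ICI. Against the limit that 0 UMIs allows (3 UMIs in the Flox+RI class), the library labelled CKO+RI was at least 2.18-fold higher than Flox+RI, while the exact interval of the ratio, as used for the other genes, starts at 1.66. A Cd80 UMI was seen in 10.4% of these cells, in 0 of 123 (which allows up to 2.44%) and in 8.58%, against 0.361%, 0% and 1.43% of endothelial cells. The 6 macrophage markers summed to 179.8 CPM in CD8 T-gated cells of the library labelled CKO+RI, 117 CPM in Flox+RI and 139 CPM in Flox+ICI, and the 6 neutrophil markers to 217 CPM, 136 CPM and 476 CPM. Their part in the Cd80 counts was not tested.

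Cd86 was found across myeloid classes, and in macrophages the library labelled CKO+RI and Flox+ICI both stood above Flox+RI. Macrophages had 293 CPM (278 to 309) in the library labelled CKO+RI, 208 CPM (197 to 219.8) in Flox+RI and 280.4 CPM (265 to 296) in Flox+ICI, with a UMI in 65.2%, 44.5% and 59.5% of cells. Endothelial cells, a class that should lack Cd86, showed a UMI in 0.722%, 0.847% and 0.952%. The ratios in macrophages were 1.41 (1.31 to 1.52) for the library labelled CKO+RI over Flox+RI and 0.743 (0.688 to 0.803) for Flox+RI over Flox+ICI. In cluster 10 Cd86 was 341 CPM, 253 CPM and 446 CPM, and in cluster 17 it was 192 CPM, 198 CPM and 189 CPM. Flox+RI was below Flox+ICI in cluster 10 (0.567, 0.513 to 0.626) and level with it in cluster 17 (1.05, 0.948 to 1.16), as for Cd274. Macrophages with a UMI of Gpnmb, the leading gene of cluster 17 and a gene of lipid-laden macrophages, had less Cd86 than those without in each library, with 213 CPM and 336 CPM in the library labelled CKO+RI, 179 CPM and 268 CPM in Flox+RI, and 214 CPM and 460.1 CPM in Flox+ICI. For Cd274 the same division ran in opposite ways between Flox+RI and Flox+ICI. In the library labelled CKO+RI it was 178.8 CPM in cells with and 163 CPM in cells without a Gpnmb UMI (1.10-fold, 0.951 to 1.27). The values were 70.4 CPM in cells with and 39.7 CPM in cells without a Gpnmb UMI in Flox+RI (1.77-fold, 1.39 to 2.28), and 74.8 CPM and 146.7 CPM in Flox+ICI (0.510-fold, 0.418 to 0.622). Classical monocytes had 177 CPM (154 to 203), 249 CPM (213 to 289) and 314 CPM (292 to 339). Conventional dendritic cells had 252 CPM (134 to 430.5), 422 CPM (278 to 615) and 674 CPM (522 to 856) on 6, 15 and 15 cells, and migratory dendritic cells 193 CPM, 595 CPM and 982 CPM.

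**Figure D4:**
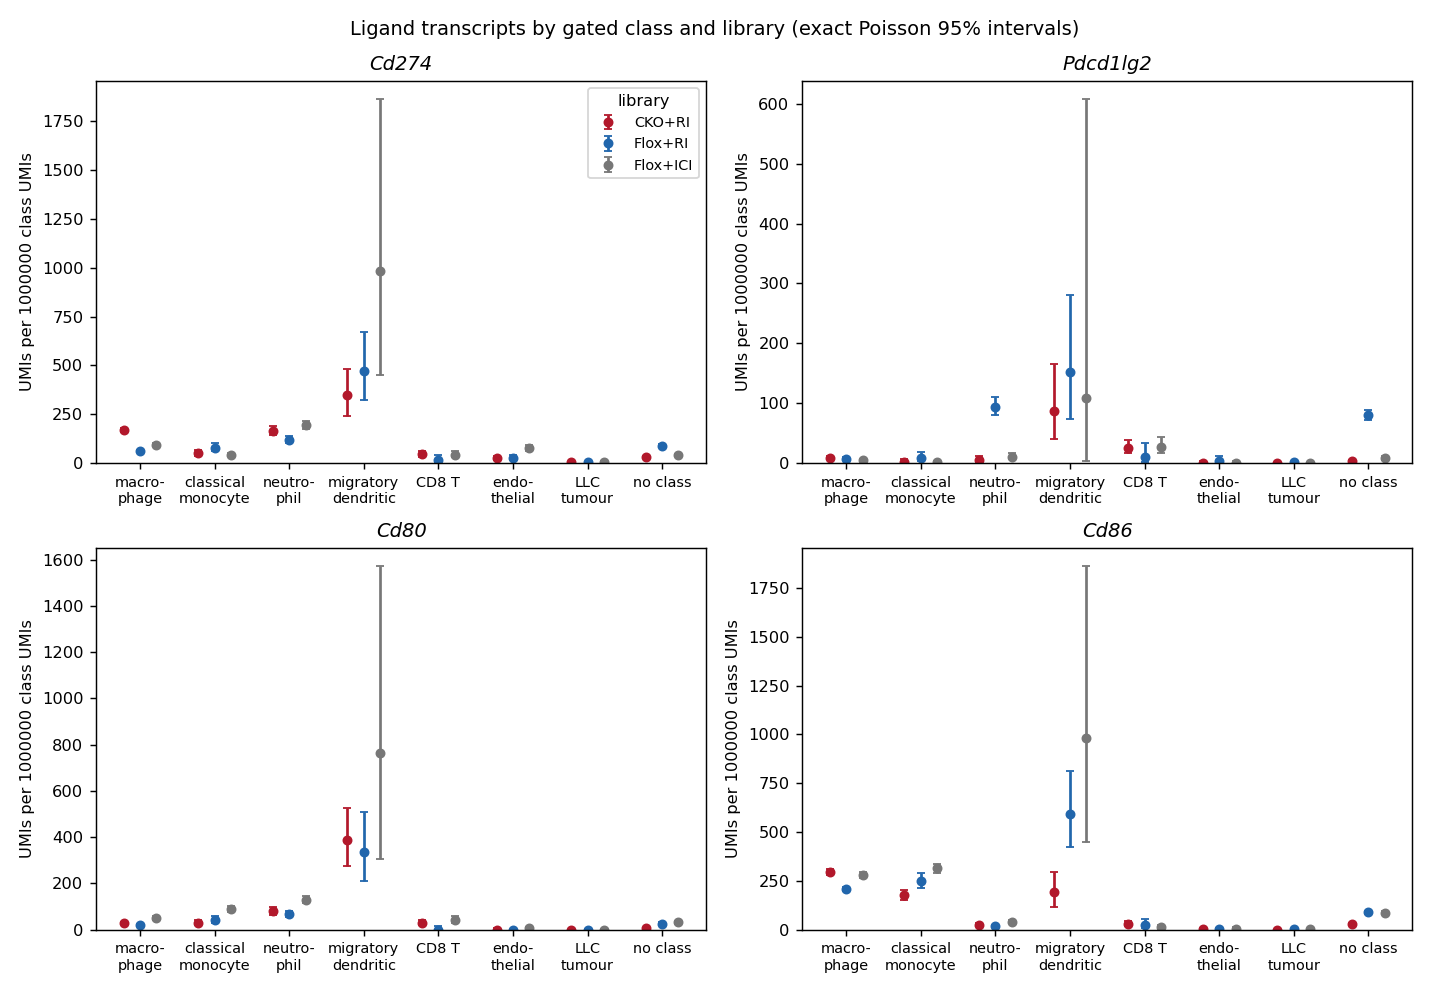
Level of Cd274, Pdcd1lg2, Cd80 and Cd86 (UMIs per 1000000 UMIs of the class, with exact Poisson 95% intervals) in myeloid classes, CD8 T cells, endothelial cells, tumour-gated cells and cells of no class of the library labelled CKO+RI, Flox+RI and Flox+ICI. Cd274 in macrophages stands at 168, 60.2 and 94.1 CPM, and Pdcd1lg2 in neutrophils at 5.69, 94.0 and 10.6 CPM.

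Counts over the 8 genes were read against all genes measured in the same class. A gene was compared where both libraries had at least 50 cells of the class and together at least 20 UMIs of it, and was counted where its ratio was at least 2-fold with a counting interval that left out 1. In CD8 T-gated cells, 4 of 8 members (Pdcd1, Ctla4, Cd274 and Cd80) stood higher in the library labelled CKO+RI than in Flox+RI and 0 lower, where 5.74% of 6720 genes were higher and 4.73% lower. Cd274 was 3.16-fold there with an interval of 1.01 to 15.9, on 42 and 3 UMIs. In macrophages 1 of 5 members (Cd274) was higher and 0 lower, against 7.01% and 7.79% of 12225 genes. In neutrophils 0 of 5 were higher and 2 (Ctla4 and Pdcd1lg2) lower, against 6.23% and 14.6% of 8834 genes. In tumour-gated cells 0 of 7 were higher and 3 (Icos, Pdcd1lg2 and Cd80) lower, against 4.5% and 9.24% of 17209 genes. These 3 were at 0.206, 0.438 and 0.599 CPM in tumour-gated cells pooled over the libraries, and Icos rested on 17 and 24 UMIs. In Flox+RI, 109 tumour-gated cells (2.56%) lay in cluster 20. All 5 members compared in alveolar type 2-gated cells were lower, against 7.91% of genes (6.68% were higher), and this class shares cells with cluster 20 as given above. In T cells with no subset marker 1 of 6 (Cd86, on 17 and 3 UMIs) was higher and 0 lower, against 4.43% and 4.25%. In classical monocytes 0 of 4 and in endothelial cells 0 of 2 were counted in either direction, against 8.67% higher and 7.4% lower in monocytes and 11.4% and 3.92% in endothelial cells.

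For Flox+RI over Flox+ICI the counts in CD8 T-gated cells were 0 of 7 members higher and 2 lower (Pdcd1 and Cd80), where 2.43% of 5918 genes were higher and 5.69% lower. Macrophages had 0 of 5 higher and 1 (Cd80) lower, against 3.29% and 3.03%. Neutrophils had 1 of 5 (Pdcd1lg2) higher and 1 (Cd86) lower, against 13.9% and 6.66%. Tumour-gated cells had 1 of 7 (Pdcd1lg2) higher and 1 (Cd274) lower, against 3.28% and 8.95%. Monocytes had 0 of 4 higher and 1 (Cd80) lower, against 4.91% and 6.55%, and endothelial cells 0 of 2 higher and 1 (Cd274) lower, against 5.42% and 13.6%. Alveolar type 2-gated cells had 1 of 5 (Pdcd1lg2) higher and 0 lower, against 4.55% and 8.88%, and T cells with no subset marker 0 of 6 in either direction, against 2.32% and 3.58%. A count of 1 among so few members is not read as a difference from these shares. The counts of 2 or more are 4 of 8 higher in CD8 T-gated cells, 5 of 5 lower in alveolar type 2-gated cells, 3 of 7 lower in tumour-gated cells and 2 of 5 lower in neutrophils for the library labelled CKO+RI over Flox+RI, and 2 of 7 lower in CD8 T-gated cells for Flox+RI over Flox+ICI, each a larger share than over all genes. The count in tumour-gated cells is of genes at the low levels given above and is not read as a change of these genes in tumour cells.

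**Figure D5:**
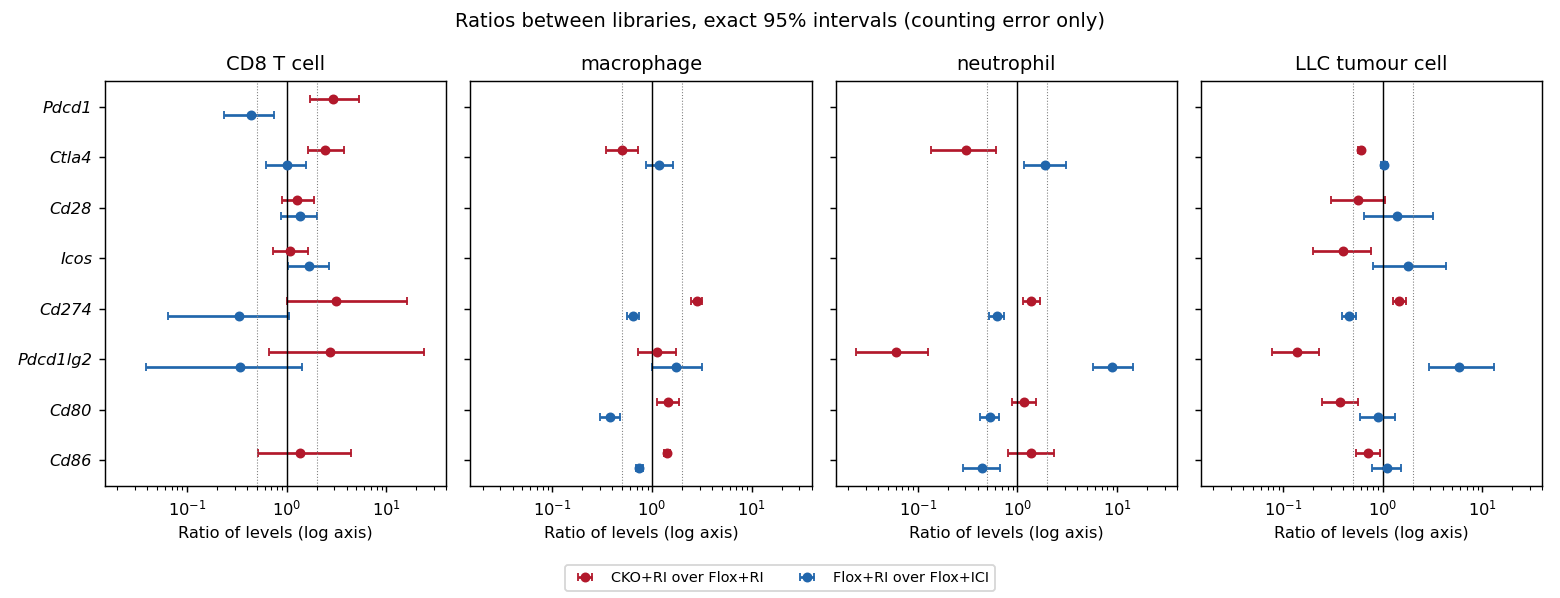
Ratios of levels (log scale, with exact 95% counting intervals) of the 8 genes in CD8 T cells, macrophages, neutrophils and tumour-gated cells, for the library labelled CKO+RI over Flox+RI and for Flox+RI over Flox+ICI. Only genes with at least 20 UMIs together and none at 0 are drawn, and Pdcd1 in CD8 T cells stands at 2.92 and 0.434.

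Genes that act around these receptors were followed in 6 lists of 57 genes. In CD8 T-gated cells, 0 of 12 genes of proximal CD28 and T cell receptor signalling were 2-fold higher or lower in the library labelled CKO+RI than in Flox+RI, with a median log2 ratio of -0.09 against 0.05 over all genes measured, of which 5.74% were higher and 4.73% lower. Of 13 measured transcription factors known to act at Pdcd1, Ctla4 or Icos, 0 were higher and 3 lower (median -0.13): Nr4a3, an early gene of T cell receptor signalling, at 113 CPM and 375 CPM (0.301-fold, 0.224 to 0.408), Tbx21, the T-bet gene, at 149 CPM and 305 CPM (0.489-fold, 0.362 to 0.666), and Bcl6, a repressor, at 36.0 CPM and 122 CPM (0.295-fold, 0.172 to 0.511). Among 8 genes of phosphatases and other restraints, 1 was lower: Dgka, a kinase that consumes diacylglycerol, at 81.4 CPM and 169 CPM (0.482-fold, 0.321 to 0.737). Of 9 measured genes of PD-L1 induction and stability, 1 was higher (Hif1a, the hypoxia factor, at 179.8 CPM and 65.7 CPM, 2.74-fold, 1.59 to 5.11) and 0 lower. Of 3 measured genes of CTLA-4 trafficking and of the 1 measured gene among other B7 and CD28 family genes and partners, 0 were past 2-fold. A count of 1 or 3 in lists this short is a description and is not read as a change of the list. For Flox+RI over Flox+ICI in CD8 T-gated cells, 1 of 12 factors was higher (Irf4, at 51.6 CPM and 19.9 CPM, 2.59-fold, 1.05 to 6.27), 0 were lower, and the median was 0.19 against -0.13 over all genes, of which 2.43% were higher and 5.69% lower.

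In macrophages, 1 of 12 genes of PD-L1 induction and stability was higher in the library labelled CKO+RI than in Flox+RI and 0 lower (median 0.08 against 0.13 over all genes, of which 7.01% were higher and 7.79% lower). That gene was Cmtm6, whose protein protects PD-L1 from degradation, at 19.9 CPM and 7.28 CPM (2.73-fold, 1.91 to 3.96). It was also the 1 gene of that list that was lower in Flox+RI than in Flox+ICI macrophages, at 7.28 CPM and 16.4 CPM (0.444-fold, 0.301 to 0.649). Cmtm6 therefore had the order of Cd274 over the 3 libraries in macrophages. Flox+RI was, however, also the lowest for Cmtm6 in every other class in which it was followed, in some on few UMIs. In classical monocytes Cmtm6 was 31.4 CPM in the library labelled CKO+RI, 15.8 CPM in Flox+RI and 19.3 CPM in Flox+ICI. Cd274 ran the other way there, with its highest level in Flox+RI. Most monocyte-gated cells of Flox+RI lay outside monocyte cluster 9, however, and within that cluster Cd274 did not differ beyond counting error, as given above. Whether Cmtm6 and Cd274 are linked was not tested. Cd276, which encodes the B7 family protein B7-H3, was 6.76 CPM in macrophages of the library labelled CKO+RI, against 1.39 CPM in Flox+RI (4.85-fold, 2.27 to 11.5), on 33 and 9 UMIs.

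In tumour-gated cells, where Cd274 was lower in Flox+RI than in Flox+ICI, the genes of the PD-L1 induction and stability list named below were also lower. Of its 12 genes 0 were 2-fold higher, where 3.28% of 16664 genes were higher and 8.95% lower. A count of 0 is near that share and is not read as a change of the list. The median log2 ratio of the list was -0.46, against -0.25 over all genes. Irf1, an interferon-induced factor that acts at the PD-L1 gene, was 71.3 CPM in Flox+RI and 167 CPM in Flox+ICI (0.427-fold, 0.412 to 0.442). Within each of these libraries, however, Cd274 did not differ beyond counting error between tumour-gated cells with and without an Irf1 UMI, as given above. Nfkb1, an NF-kB subunit, was 195 CPM and 389 CPM (0.4999-fold, 0.489 to 0.511). In neutrophils Cmtm6 was 56.9 CPM in the library labelled CKO+RI, 25.8 CPM in Flox+RI and 54.1 CPM in Flox+ICI. Flox+RI was thus the lowest, as for Cd274 in neutrophils and as for Cmtm6 in the other classes. Because tumour-gated cells lay in different clusters in each library, the ratios of tumour-gated cells compare clusters as well as libraries.

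Across classes, the receptors and ligands were each like other genes of their cell types. Over 35 points (a class in a library, with points sharing library and depth), the log level of Pdcd1 correlated most with Cd3g (Pearson r = 0.975), Trac (0.972) and Cd3e (0.970), which are parts of the T cell receptor complex and were used in the gate. Cd28 was most like Trbc2 (0.981), Lat (0.979) and Cd96 (0.977), and Icos most like Ubash3a (0.982), Trbc2 (0.974) and Camk4 (0.970). Ctla4 was most like Ubash3a (0.931), Sit1 (0.930) and Cd3e (0.918). Cd86 was most like Ly86 (0.920), Pld4 (0.914) and Irf5 (0.913), genes of myeloid and B cells. Cd274 (Cdc42, 0.817), Cd80 (Ptafr, 0.847) and Pdcd1lg2 (Hist1h4i, 0.716) had no gene as close. Between members the closest pair was Cd28 and Icos (0.977), and among ligands Cd274 and Cd80 (0.757).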

How the data were processed

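Single-cell RNA was measured in 3 droplet libraries, with 1 library per group, so no test between groups was possible. The deposited values are raw UMI counts per gene and barcode, made by the authors with Cell Ranger 6.0 on build mm10 per the submitters' processing notes (Seurat 5.0.3 is also listed there), and with Cell Ranger 6.1.2 per the file headers. The gene annotation of the authors was not given in the sources used here. Coordinates and transcripts were taken from GENCODE M21 on GRCm38.

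Barcodes needed 200 detected genes or more and a mitochondrial share of no more than 20%, and scrublet doublet calls were removed at an assumed rate of 0.8% per 1000 barcodes (653 barcodes for the library labelled CKO+RI, 1367 for Flox+RI and 915 for Flox+ICI). No barcode had fewer than 500 UMIs. Classes came from a marker gate (at least 2 of 6 markers, a lead of at least 1), and a clustering with 2000 variable genes, 30 components, 15 neighbours and Leiden resolution 1 gave 22 clusters, of which 3 were left unnamed. UMIs were summed per class and library, totals being 143637387, 86628187 and 65737509 kept UMIs across the library labelled CKO+RI, Flox+RI and Flox+ICI. Levels carry exact Poisson, shares exact Clopper-Pearson and ratios exact conditional binomial 95% intervals, which cover counting error only. A count of 0 was given a limit of 3 counts. Likeness used genes with at least 100 UMIs, with 10 CPM added before the logarithm. The code for ratios and 2-fold calls was tested on simulated counts, and the gate was not.

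The 8 genes were named by symbol. Other genes were named where their list held them and they passed 2-fold, where they led a cluster or were among the 3 most alike, or where they marked a state chosen after its values were seen (Cxcl9, Gbp2, Gpnmb, Ccl3). Irf1 was set beside Gbp2. Of the genes compared between CD8 T-gated cells with and without a Pdcd1 UMI, only some are named. A gene of the PD-L1 list is not reported here. Members, lists and markers were chosen with earlier results of these data known. Python 3.11.15 with numpy 2.4.6, scipy 1.17.1, pandas 2.3.3 and scanpy 1.11.5 was used, with edgeR 4.0.16 (R 4.3.3) for normalization factors in 1 alternative. Alternatives were other marker minimums, no doublet removal, thinning to 1000 UMIs per cell, means over cells, classes from clusters and subsets of macrophages.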

Additional observations from a re-analysis of the deposited data

Results flagged for a closer look

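Cells that no marker gate took entered no comparison above, and they held UMIs of every gene of the axis. Over the 3 libraries together they held 56 Pdcd1, 408 Ctla4, 163 Cd28 and 167 Icos UMIs, and 742 Cd274, 402 Pdcd1lg2, 286 Cd80 and 908 Cd86 UMIs, each above the 3 counts that 0 allows. They numbered 841 for the library labelled CKO+RI, 2635 for Flox+RI and 1180 for Flox+ICI, at median depths of 1694, 882 and 1694.5 UMIs. Of the Pdcd1lg2 UMIs, 19 were for the library labelled CKO+RI, 349 for Flox+RI and 34 for Flox+ICI, or 3.36 CPM, 80.2 CPM (72.0 to 89.1) and 8.07 CPM. In Flox+RI, 304 of these cells had a Pdcd1lg2 UMI, and 79.6% of them had a Ccl3 UMI, against 57.5% of all its cells of no class. The Cd274 UMIs were 181, 388 and 173. What part of these cells belongs to the classes described above was not tested.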

How the results depend on the processing

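No paired analysis was possible because each group is 1 library and no result comes from a test. Of the alternative values, 142 stayed within counting error of the reported value, 25 moved beyond it, and 0 turned a ratio whose interval left out 1 to the other side. Alternatives planned at the outset moved 10. Requiring at least 3 markers gave T-gated cells 42.9% of Cd28 and 62.1% of Icos UMIs in Flox+RI and 58.2% and 58.5% in Flox+ICI, and neutrophils 9.42% of Pdcd1lg2 UMIs in Flox+RI. A Treg gate of Foxp3, or of both Il2ra and Ikzf2, gave 11.1% of T-gated cells in Flox+RI and 4.17% in Flox+ICI. A mean over cells gave 0.743 for Cd274 in macrophages (Flox+RI over Flox+ICI), thinning gave 1.23 for Cd86 there (the library labelled CKO+RI over Flox+RI), and keeping doublets gave 0.706 for Ctla4 in Treg-gated cells (same pair), with an interval of 0.508 to 0.979, on the other side of 1 from the reported 1.10, whose interval held 1.

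The rest were chosen after seeing the data. For Pdcd1lg2 in neutrophils, Flox+RI over Flox+ICI was 5.68 with at least 3 markers, 20.8 thinned, 2.28 in classes from clusters and 1.87 in clusters shared by the libraries, and the library labelled CKO+RI over Flox+RI was 0.249 and 0.493 in these last settings. In shared clusters that pair was 5.08 for Cd274 and 1.275 for Cd86 in macrophages. Without a Gpnmb UMI, macrophages gave 4.10 for Cd274 and 1.25 for Cd86 in that pair, and 0.271 and 0.583 for Flox+RI over Flox+ICI. With one they gave 1.20 for Cd86 in that pair, and 0.942 for Cd274 and 0.834 for Cd86 for Flox+RI over Flox+ICI. The cause was not tested. Depth limits Treg-gated, dendritic and Flox+RI CD8 T-gated values most, where single genes rest on as few as 1 to 15 UMIs.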
